A study of Mus musculus with 6 samples.

Results

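The suppressors of cytokine signaling (SOCS) and the cytokine-inducible SH2-containing protein CIS form a family of 8 genes in the mouse (Cish and Socs1 to Socs7). All 8 were found by symbol among the 16254 genes of the count table, and all 8 had enough counts to be tested, together with 13498 genes in all. Eosinophils were differentiated from bone marrow of young adult C57BL/6 mice with FLT3 ligand and stem cell factor and then IL-5. Cells of both groups had thus been grown in IL-5, a cytokine of the common β chain family. They were then cultured for 24 h with extracellular vesicles (EVs) at 5e+09 per ml, purified from cultures of activated TH2 cells, or with a sham preparation. The sham was made by passing medium that had held no cells through the same EV isolation. The study's methods list no IL-5 for these 24 h. In the study's survival assays at 24 h, such EVs raised eosinophil survival over untreated cells. The parts of survival and of IL-5 in the SOCS values were not tested. Bulk RNA sequencing gave 3 EV-treated and 3 sham-treated libraries, which the labels call biological replicates without naming the animals or cultures. The p-values therefore measure the spread between these libraries.

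SOCS proteins close a feedback loop on the JAK/STAT pathway. A cytokine receptor activates Janus kinases, these phosphorylate STAT transcription factors, and the STATs induce SOCS genes among their targets. Each SOCS protein binds phosphotyrosine through a central SH2 domain and recruits elongins and cullin-5 through its C-terminal SOCS box, so that bound proteins can be ubiquitinated, and SOCS1 and SOCS3 also block JAK activity directly. CIS and SOCS2 are classic products of STAT5, the main STAT downstream of the common β chain in eosinophils.

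Of the 8 members, 4 rose with EV treatment, namely Cish, Socs1, Socs2 and Socs3, and none fell (edgeR quasi-likelihood test, Benjamini-Hochberg adjusted p, threshold 0.01). Over all genes tested, 12.1% rose and 11.6% fell at this threshold. Increases past the threshold with a log2 fold change of at least 2 were made by 4 of the 8 members and by 1.1% of all genes. The 4 other members (Socs4 to Socs7) did not pass. The median log2 fold change was 1.39 over the 8 members and -0.014 over all genes. The groups did not overlap for 6 of the 8 members, beside 49.6% of all genes.

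Promoter sequences are shown for 4 of the 8 members (Cish, Socs1, Socs3 and Socs4), to set sequence and response side by side. Each window had 300 bases, from RefSeq on GRCm38.p6, the assembly that the submitters' processing notes call mm10. Windows of the other members were not examined. The motif TTCNNNGAA is the core letters of the site bound by most STATs. It reads the same on both strands. It was found in 8.3% of the 32851 promoter windows of this length, and in 0.457% more than once. The Cish window held it as TTCCTGGAA from base 1 and as TTCTTGGAA from base 12, counted from 1 at the transcript start annotated in RefSeq. The Socs3 window held it as TTCTTAGAA, whose first base lies at -154. The gene coordinates given below are from GENCODE vM21, in which Cish starts at 107296026 and Socs3, on the minus strand, at 117970047. By those coordinates the sites lie inside both genes. The Socs1 and Socs4 windows held none. The form with 4 bases between TTC and GAA, which STAT6 can bind, was in none of the 4 windows and in 6.95% of all windows. The stretches below read 5′ to 3′ along the gene's own strand, in lower case, with each TTCNNNGAA in capitals.
Cish, chr9:107296539-107296688, plus strand: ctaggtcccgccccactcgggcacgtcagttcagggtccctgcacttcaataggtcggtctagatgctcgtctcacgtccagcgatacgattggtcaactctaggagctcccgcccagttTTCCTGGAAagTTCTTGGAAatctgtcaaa
Socs3, chr11:117969427-117969576, minus strand: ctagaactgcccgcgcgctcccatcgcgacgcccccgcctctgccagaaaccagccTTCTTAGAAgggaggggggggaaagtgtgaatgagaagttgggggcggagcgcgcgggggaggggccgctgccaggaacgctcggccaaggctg
Socs1, chr16:10785537-10785786, minus strand: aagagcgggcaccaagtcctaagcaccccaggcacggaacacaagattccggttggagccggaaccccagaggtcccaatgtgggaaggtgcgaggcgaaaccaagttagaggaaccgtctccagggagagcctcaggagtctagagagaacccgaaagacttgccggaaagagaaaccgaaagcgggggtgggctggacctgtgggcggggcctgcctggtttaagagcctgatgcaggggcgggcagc
Socs4, chr14:47276670-47276919, plus strand: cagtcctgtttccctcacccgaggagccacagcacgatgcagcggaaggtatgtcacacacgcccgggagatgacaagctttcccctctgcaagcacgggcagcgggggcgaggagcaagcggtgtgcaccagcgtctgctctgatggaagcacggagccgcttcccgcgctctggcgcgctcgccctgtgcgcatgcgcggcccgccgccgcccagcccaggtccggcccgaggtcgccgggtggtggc
A match is a run of letters in these windows and was not measured as binding, and sites outside them were not searched.

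The libraries held between 23697620 and 37874426 counts, and the members between 68 (Socs1 in sham replicate 3) and 17605 (Cish in EV replicate 3) estimated counts. Values below are normalized counts, meaning rounded counts divided by a library size scaled with edgeR's TMM method, relative to the geometric mean of the 6 libraries. Sham-treated libraries differed more among themselves than EV-treated libraries. The root mean square deviation from the group mean lay between 0.41 and 0.49 against 0.27 and 0.33 (log2 CPM, counts with an added prior count scaled to the TMM library size). Sham replicates 2 and 3 were the smallest libraries, with 23697620 and 24158650 counts. The part of library size in this difference was not tested. The marker counts that follow stand beside 12.1% of all genes tested that were higher and 11.6% that were lower. Of 12 eosinophil markers, 8 were higher with EVs and none was lower. The marker sum ranged from 942207 to 1186850 in sham-treated and from 1344101 to 1501585 in EV-treated libraries. Prg2 made up 558759 to 717371 and 712821 to 777590 of these sums. Its groups overlapped and it did not pass (adjusted p = 0.0478, edgeR). Of 11 macrophage markers tested, 8 were lower and 1, Adgre1, was higher, with a median log2 fold change of -2.48. Their sums were 45350 to 62038 and 40811 to 45644. Adgre1 alone made up 21095 to 21678 and 32085 to 33532 of these sums, so that they hide much of the fall of the others. Which cells of the cultures gave the Adgre1 counts was not measured. Of 8 basophil and mast cell markers tested, 6 were higher, with sums of 6671 to 8541 and of 14904 to 17591. Of 12 neutrophil markers tested, 5 were lower and 2 higher, with sums of 22262 to 26037 and of 20540 to 24417. Of 16 T cell markers, which include TH2 cytokines, 5 could be tested and 2 were higher, Il4 and Il13, and 1 was lower, Cd28, while Cd3g and Cd2 had means of only 3.91 and 1.15 in EV-treated libraries and Cd2 was at 0 in every sham-treated one. The marker sums were 851 to 1249 and 937 to 1006. They hide opposite changes, since Il4 had means of 437 and 837 and Cd28 of 559 and 42.4 in sham- and EV-treated libraries. The part of these cell types in the SOCS values was not tested. In bulk RNA, fewer cells of a type and less RNA per cell cannot be told apart.

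Cish (chromosome 9, 107296026 to 107302784, plus strand, GENCODE vM21 on GRCm38) encodes CIS, which binds activated cytokine receptors and competes with STAT5. It had 775, 669 and 719 normalized counts in sham replicates 1 to 3. In EV replicates 1 to 3 it had 14976, 14438 and 15323. Every EV-treated library lay far above every sham-treated one, and the spread within each group was small, with a coefficient of variation of 7.33% and 2.99%. The log2 fold change was 4.37 (standard error 0.0745), a 20.6-fold rise, and edgeR gave an adjusted p of 3.64e-10. By p-value Cish ranked 3 among all genes tested, and by fold change 50. On the opposite strand, the antisense gene Gm17041 shares 479 exonic bases with Cish and the pseudogene Gm17040 shares 261, and 10.4% of the 31-base words of Cish occur in other genes. The strandedness of the counting is not given in the sources used here. Gm17040 had between 0 and 10 estimated counts in each library.

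Socs2 (chromosome 10, 95385362 to 95417180, minus strand) is the closest relative of Cish and is best known for restraining growth hormone signaling through STAT5. It had 952, 711 and 688 normalized counts in sham replicates 1 to 3 and 4333, 4431 and 4508 in EV replicates 1 to 3. Sham replicate 1 stood above the other two, and all 3 EV-treated libraries lay above it. The log2 fold change was 2.49 (SE 0.116, edgeR adjusted p = 2.59e-07), a 5.62-fold rise. In sham-treated libraries there were 0.93 ± 0.12 (SD, n = 3) counts of Cish for each count of Socs2, and in EV-treated libraries 3.37 ± 0.10 (SD, n = 3). The ranges of this ratio, 0.81 to 1.05 and 3.26 to 3.46, did not overlap.

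Socs1 (chromosome 16, 10782240 to 10785536, minus strand) encodes the strongest direct JAK inhibitor of the family, which limits signaling by interferons and IL-4. It had 123, 174 and 82.6 normalized counts in sham replicates 1 to 3, the widest relative spread of the family, with a coefficient of variation of 36.1%. In EV replicates 1 to 3 it had 4002, 4345 and 4661. Its log2 fold change of 5.10 (SE 0.189, edgeR adjusted p = 5.75e-08), a 34.3-fold rise, was the largest point value of the 8 members. The 95% interval of Socs1, 4.68 to 5.52, lay above the upper end of that of Cish, 4.53, and the difference between these genes was not tested. By fold change Socs1 ranked 35 among all genes tested.

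Socs3 (chromosome 11, 117966079 to 117970047, minus strand) encodes the inhibitor that acts on receptors sharing gp130 and on the G-CSF receptor. It had 164, 201 and 208 normalized counts in sham replicates 1 to 3 and 2551, 2564 and 2683 in EV replicates 1 to 3. The 2 groups lay far apart, and no library stood out in either. The log2 fold change was 3.77 (SE 0.103, edgeR adjusted p = 1.03e-08), a 13.7-fold rise. The ratio of Socs1 to Socs3 was 0.75, 0.87 and 0.40 in sham replicates 1 to 3 and 1.57, 1.69 and 1.74 in EV replicates 1 to 3, so that Socs3 had the more counts in every sham-treated library and Socs1 in every EV-treated one.

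**Figure D1:**
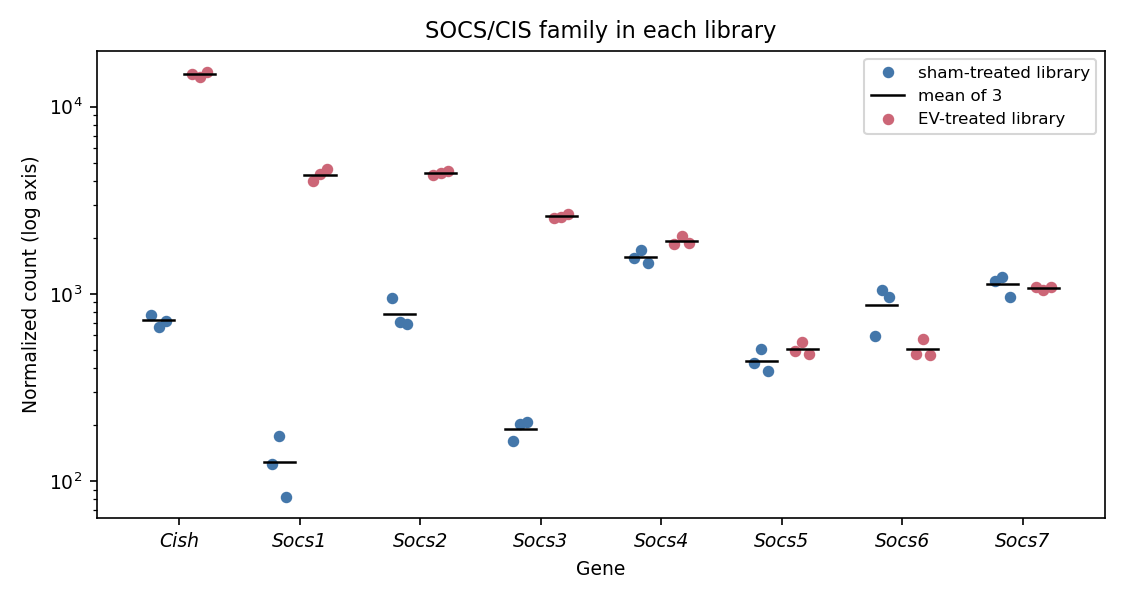
Normalized counts (log axis) of the 8 SOCS/CIS genes in each of the 3 sham-treated and 3 EV-treated libraries, with black lines at the group means. Cish, Socs1, Socs2 and Socs3 lie apart by 5.62- to 34.3-fold, while the groups of Socs5 and Socs7 overlap.

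Socs4 to Socs7 carry a longer N-terminal region than the other members, and Socs4 and Socs5 are known for acting on the epidermal growth factor receptor. Socs4 had 1560, 1711 and 1459 normalized counts in sham replicates 1 to 3 and 1845, 2042 and 1861 in EV replicates 1 to 3. All EV-treated libraries lay above all sham-treated ones, but by little. The log2 fold change was 0.28 (SE 0.081), with an edgeR adjusted p of 0.0214 and a 95% interval of 0.10 to 0.46, so that a change as large as that of Socs2 lies outside the interval. Socs5 had 427, 509 and 385 and then 494, 555 and 475. Its groups overlapped, with a log2 fold change of 0.21 (95% interval -0.11 to 0.52, adjusted p = 0.288 in the same edgeR fit).

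Socs6 and Socs7, which have been linked to insulin receptor signaling, also missed the threshold. Socs6 had 596, 1047 and 959 normalized counts in sham replicates 1 to 3 and 475, 572 and 473 in EV replicates 1 to 3. The groups did not overlap, but sham replicate 1 lay close to EV replicate 2. The log2 fold change was -0.77 (standard error 0.192, 95% interval -1.20 to -0.34), with an edgeR adjusted p of 0.0106. Without sham replicate 1 it was -0.98 with an adjusted p of 0.00021, and a replicate block gave -0.74 with 0.000396, both past the threshold. Over 12 refits in all the adjusted p ran from 0.00021 to 0.0533. The summed macrophage markers were likewise lowest in sham replicate 1 among the sham-treated libraries, at 45350 beside 62038 and 59646. In EV replicates 1 to 3 they were 40811, 45644 and 44911. Adgre1, the 1 gene of this list that rose, made up 21206, 21095 and 21678 of the sham sums and 32085, 33532 and 32675 of the EV sums. The cells that gave these counts were not measured. The part of macrophage markers in the Socs6 values was not tested. Socs7 had 1173, 1230 and 966 and then 1089, 1051 and 1082, with a log2 fold change of -0.065 (95% interval -0.29 to 0.16, adjusted p = 0.657). The EV-treated values of Socs7 lay within the sham-treated range.

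**Figure D2:**
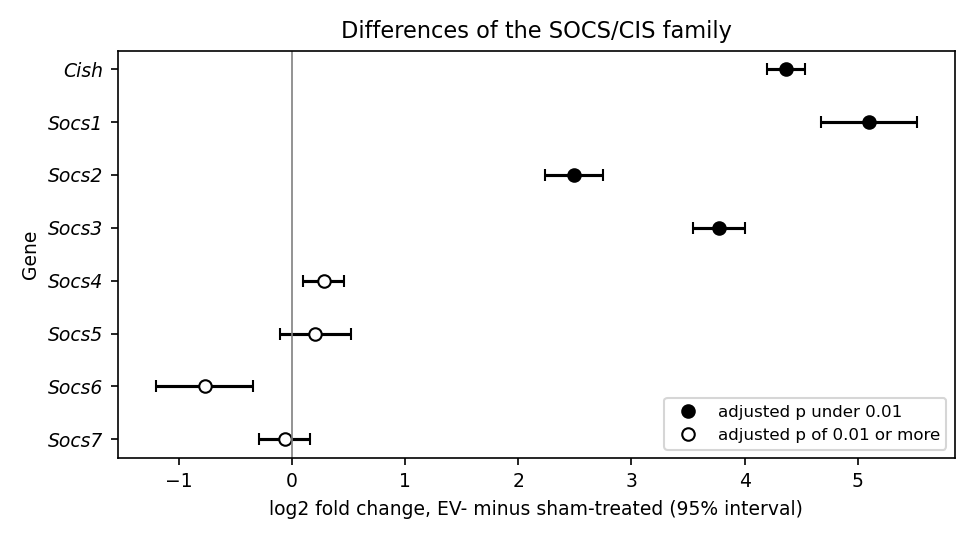
Log2 fold change of EV- over sham-treated eosinophils for each SOCS/CIS gene with its 95% interval from edgeR's quasi-likelihood fit (3 against 3 libraries), filled where the adjusted p was under 0.01. Cish, Socs1, Socs2 and Socs3 lie between 2.49 and 5.10, and Socs4 to Socs7 between -0.77 and 0.28.

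The make-up of the family changed with its total. The 8 members summed to 5770, 6252 and 5467 normalized counts in the sham-treated libraries. With EVs the sums were 29763, 29998 and 31065, a ratio of the means of 5.19. These sums are given as a description, with no test. Socs4 was the member with the most counts in every sham-treated library, with 27.0% ± 0.336 (SD, n = 3) of the family's counts, and Cish held 13.4%, 10.7% and 13.2% in sham replicates 1 to 3. In EV-treated libraries Cish held 49.3% ± 1.09 (SD, n = 3) and Socs4 6.33% ± 0.424 (SD, n = 3). Socs2 kept nearly the same share, 13.5% ± 2.68 (SD, n = 3) and 14.6% ± 0.139 (SD, n = 3). Socs1 went from 2.14% to 14.3% and Socs3 from 3.29% to 8.58% of the family's counts.

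**Figure D3:**
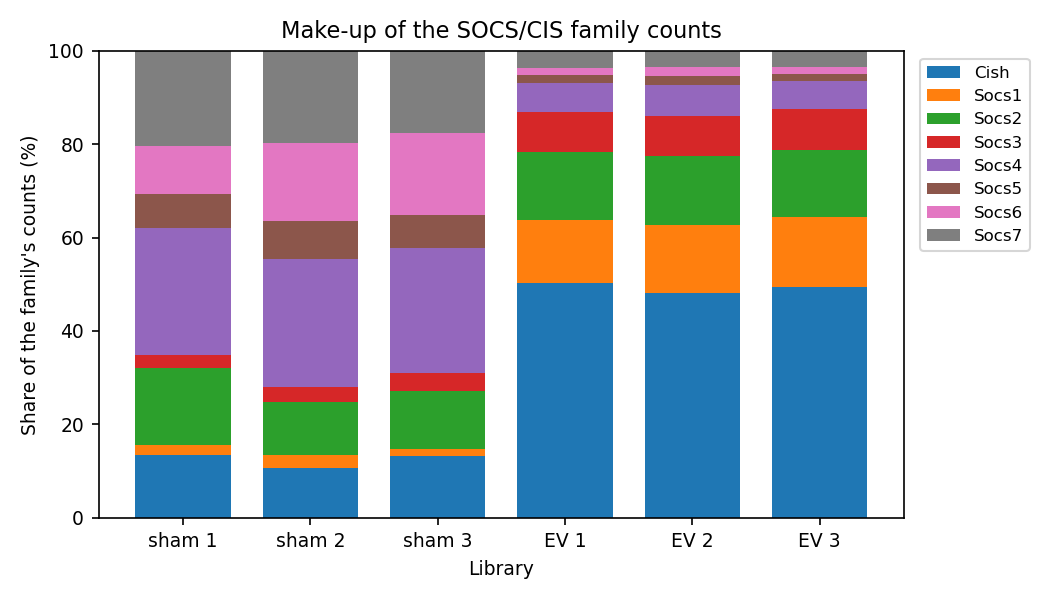
Share of the SOCS/CIS family's summed counts held by each member (percent, stacked bars) in the 3 sham-treated and 3 EV-treated libraries. Cish goes from between 10.7% and 13.4% to between 48.1% and 50.3%, and Socs4 from between 26.7% and 27.4% to between 5.99% and 6.81%.

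Longer transcripts yield more counts, so levels of different members were compared per kb of the longest coding transcript in GENCODE vM21. It ranges from 2222 bases for Socs2 to 7015 for Socs7. The counts are per gene, and Socs2 has 14 annotated transcripts and Cish 5. Which of them were expressed was not measured, so the order per kb rests on this choice of length. In sham-treated libraries the order of normalized counts per kb was Socs2 (353 ± 66.0, SD, n = 3), Cish (253 ± 18.6), Socs4 (229 ± 18.4), Socs7 (160 ± 19.8), Socs6 (144 ± 39.6), Socs5 (94.7 ± 13.5), Socs3 (74.8 ± 9.23) and Socs1 (43.6 ± 15.7). The ranges of Cish and Socs4, of Socs7 and Socs6, and of Socs6 and Socs5 overlapped in this order, and those of the other neighbours did not. In EV-treated libraries the order per kb was Cish (5232 ± 156, SD, n = 3), Socs2 (1991 ± 39.4), Socs1 (1491 ± 113), Socs3 (1018 ± 28.5), Socs4 (279 ± 15.9), Socs7 (153 ± 2.89), Socs5 (109 ± 9.04) and Socs6 (83.9 ± 9.39). No neighbours overlapped there. The members at the bottom of the sham order, Socs1 and Socs3, stood at ranks 3 and 4 of the EV order.

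**Figure D4:**
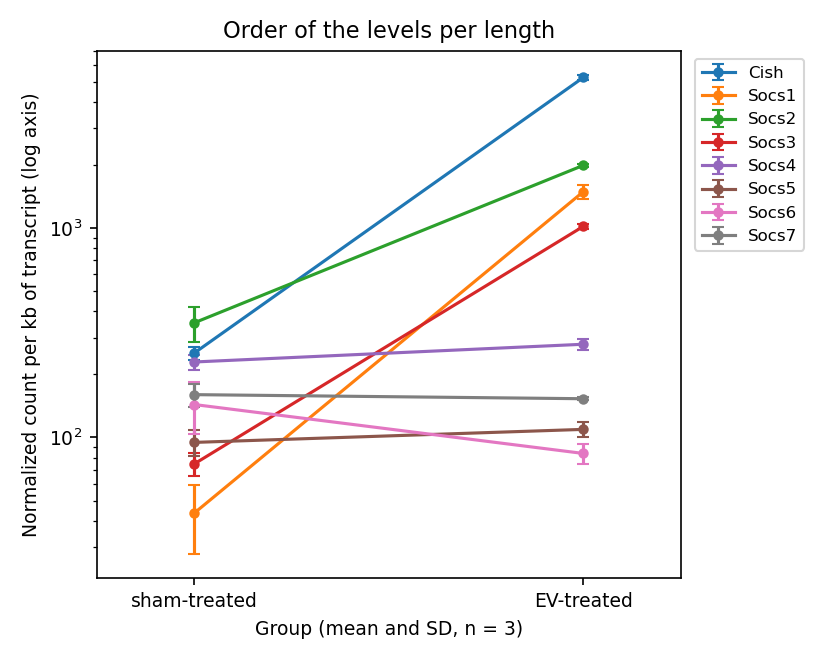
Normalized counts per kb of the longest coding transcript (log axis) for the 8 SOCS/CIS genes, as mean and SD of 3 sham-treated and 3 EV-treated libraries. Socs1 crosses from rank 8 to rank 3 and Socs3 from rank 7 to rank 4, while Cish passes Socs2.

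Genes around the family were counted in lists by role, set beside the 23.7% of all genes that passed in either direction. Among 11 JAKs and STATs, 4 rose and none fell. Jak2, the kinase bound to the common β chain, rose from 5542, 5334 and 5227 normalized counts in sham replicates 1 to 3 to 14473, 14365 and 13996 in EV replicates 1 to 3, a log2 fold change of 1.41 (adjusted p = 6.44e-08, edgeR). Stat3 rose by 0.30 on the log2 scale (adjusted p = 0.00329, edgeR). Stat5a, Stat5b and Stat6 did not pass, with log2 fold changes of 0.081, -0.10 and -0.078 (adjusted p = 0.422, 0.281 and 0.300, edgeR).

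Of 26 cytokine receptor genes tested, 7 rose and 4 fell. Il10ra, Csf2rb, Il4ra and Csf2rb2 rose by log2 fold changes of 2.35, 1.41, 1.22 and 1.09 (the largest adjusted p of these was 1.33e-06, for Il4ra, in edgeR's test). Csf2rb encodes the common β chain, and Csf2rb2 is a close paralog that serves IL-3 alone and shares part of its sequence, so that reads could be split between them. Il6ra and Il7r fell by 2.70 and 2.15 on the log2 scale. The α chains did not pass, with -0.19 for Il3ra and -0.14 for Il5ra on the log2 scale (adjusted p = 0.191 and 0.155, edgeR). Without EV replicate 3, 4 of the 26 rose, and 8 fell with library size alone or at a threshold of 0.05.

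Other inhibitors of the pathway were counted in the same way. Of 13 such genes, which cover PIAS proteins, phosphatases, Cbl ligases, Sh2b3 and Usp18, 7 rose and 1 fell, with a median log2 fold change of 0.36. Usp18, which restrains the type I interferon receptor, had 56.8, 17.2 and 96.0 normalized counts in sham replicates 1 to 3 and 290, 393 and 385 in EV replicates 1 to 3, a log2 fold change of 2.65 (adjusted p = 0.000989, edgeR). Ptpn6, which encodes the phosphatase SHP-1, rose by 0.65 (adjusted p = 1.87e-05). Cblb, a ubiquitin ligase, fell by 0.34 on the log2 scale (adjusted p = 0.00223). Without EV replicate 3, and with library size alone, 3 of the 13 genes rose, and none fell without EV replicate 1 or without EV replicate 2.

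Genes of the ligase that the SOCS box recruits were set beside the 12.1% of all genes that rose and the 11.6% that fell. Of 10 tested (elongins, cullins, RING proteins and the neddylation enzymes around them), none rose and 1 fell, namely Rnf7, which fell by 0.58 on the log2 scale (adjusted p = 0.0077, edgeR). Rnf7 lost its call in 5 of the 6 fits that left out a library. Those were the fits without sham replicate 2 or 3 or any one EV replicate, and without sham replicate 1 there was 1 gene that rose. At a threshold of 0.05, 2 of the 10 rose. The scaffold Cul5 had 1590, 1393 and 1435 normalized counts in sham replicates 1 to 3 and 1508, 1463 and 1428 in EV replicates 1 to 3, a log2 fold change of -0.0075 (95% interval -0.18 to 0.16).

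Among 17 other genes for SOCS-box proteins that could be tested, 3 rose and 2 fell, near the 12.1% and 11.6% of all genes. Asb2, whose ankyrin-repeat product recruits the same kind of ligase, had the largest rise of this list. It had 133, 76.0 and 52.2 normalized counts in sham replicates 1 to 3 and 3118, 3570 and 3634 in EV replicates 1 to 3, a log2 fold change of 5.25 (95% interval 4.74 to 5.77, adjusted p = 1.77e-07, edgeR). Asb1 rose by 0.60. Spsb1, which regulates inducible nitric oxide synthase, fell by 1.76, and Wsb1 fell by 0.48, on the log2 scale. Without sham replicate 1, 4 of the 17 fell. With library size alone, and without EV replicate 2 or EV replicate 3, 2 of the 17 rose.

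Genes known as targets of STAT5, STAT3 and STAT6 were counted in lists that share some members, such as Pim1, Myc, Mcl1 and Il4ra. Of 15 STAT5 targets other than SOCS genes, 10 rose and 3 fell. The kinase Pim2 had a log2 fold change of 3.45 and the cytokine Osm of 3.34 (adjusted p = 5.67e-07 and 2.08e-08, edgeR), between those of Socs2 and Socs3. The genes that fell were Bcl6, which STAT5 represses, Ccnd1, a cyclin gene that STAT5 induces, and Gadd45g, a stress-response gene. Bcl6 fell by 2.64, Ccnd1 fell by 1.93 and Gadd45g fell by 1.32 on the log2 scale (adjusted p = 9.31e-08, 3.16e-05 and 0.00193, edgeR). Of 14 STAT3 targets tested, 8 rose and 3 fell, with Pim1 at 1.93, Vegfa at -2.01 and Lcn2 at -1.87.

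Of 12 STAT6 targets tested, 7 rose and 1 fell, namely Ccl17, which fell by 1.37 on the log2 scale. Retnla rose by 7.81, and Ccl24 was at 0 in all 3 sham-treated libraries, with 131, 206 and 144 normalized counts in EV replicates 1 to 3. These 3 lists had median log2 fold changes of 0.94, 0.76 and 1.37 in the order STAT5, STAT3 and STAT6. Signaling through any one STAT was not measured here.

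**Figure D5:**
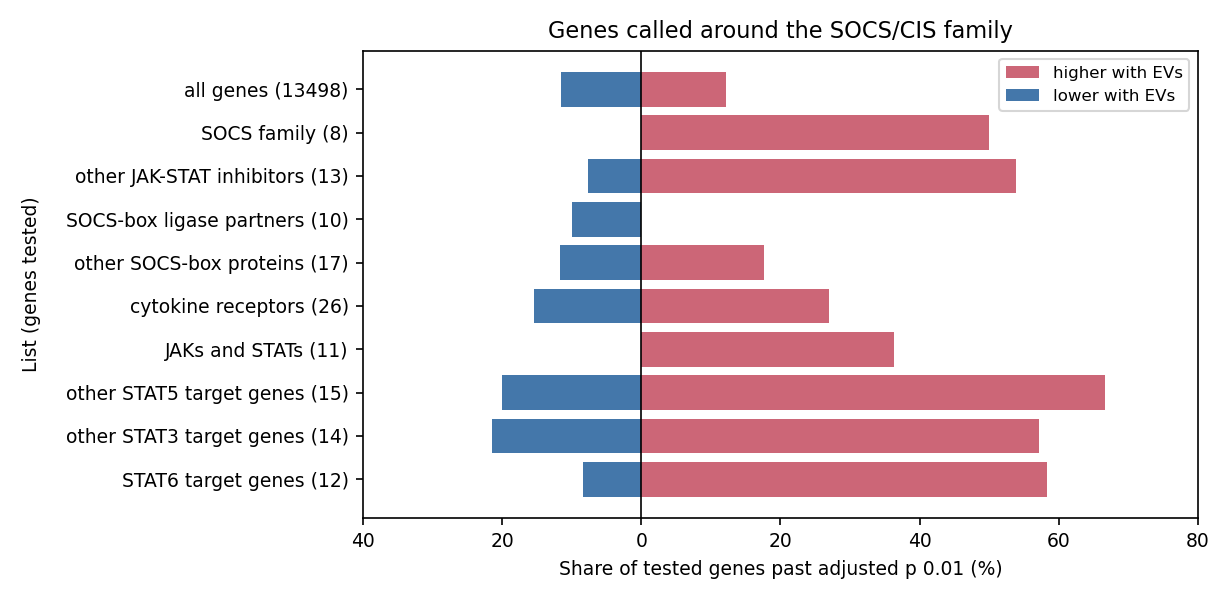
Percent of the tested genes of each list past an adjusted p of 0.01 (edgeR), higher with EVs to the right and lower to the left, with the number tested in parentheses and all genes at the top. Beside the 12.1% of all genes that rose, the lists run from 0 of 10 for the ligase partners to 10 of 15 for STAT5 targets. Other SOCS-box proteins, at 3 of 17, lie near that share.

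Profiles most like each member were sought as the smallest root mean square distance between centred log2 CPM over the 6 libraries. For Socs2 these were Txk, Ly6g and Cyp11a1 (distances of 0.057, 0.13 and 0.14). For Socs1 they were Ikzf4, Bcl2a1a and Gm14400 (0.17, 0.27 and 0.31), and for Socs3 Upp1, C7 and Pglyrp2 (0.17, 0.19 and 0.19). The 3 nearest to Cish, namely Trgc1, Hbb-y and Rnf152, and Gm14400 near Socs1 were at 0 in all sham-treated libraries, and C7 had a mean of only 5.87 there. At such levels log2 CPM depends on the added prior count. When a mean of at least 10 normalized counts was asked for in both groups, a choice made after seeing that result, the nearest to Cish were Upp1, Adora2a and Adra2a (0.28, 0.31 and 0.31), Lama5 (0.37) took the place of Gm14400 for Socs1, and Fgl2 (0.20) that of C7 for Socs3. For Socs6 the nearest were Anxa4, Rap2a and Slc16a10 (0.058, 0.083 and 0.086). Socs4 was nearest to Gtpbp4, Dicer1 and Sesn3, Socs5 to Wdr70, Asf1a and Gabpa, and Socs7 to Bahcc1, Rrm2b and Cep85, at distances between 0.031 and 0.050. With 6 libraries in 2 groups, likeness here mostly means a change of the same size.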

How the data were processed

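Per the labels and the study's methods, read quality was checked in FastQC, adapters were removed by Cutadapt, Salmon estimated the counts, and DESeq2 compared the groups. Versions, annotation and strandedness are not given in the sources used here, and mm10 is named in the submitters' processing notes. The authors deposited estimated counts per gene, which need not be whole, and normalized counts, a signal made by adding 1 and dividing by a size factor. Their table of fold changes and p-values was not used.

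Estimated counts were rounded and tested with edgeR 4.0.16 (R 4.3.3), using TMM scaling, filterByExpr, the quasi-likelihood test and Benjamini-Hochberg adjustment over 13498 genes, with a threshold of 0.01. Standard errors are the log2 fold change over the square root of F, and 95% intervals use the fit's degrees of freedom. The test was checked on counts simulated from means and dispersions that edgeR had fitted, which cannot show how well its model suits these libraries. With 3 libraries a group, the smallest two-sided p of an exact permutation test of 1 gene is 0.1. Alternatives used DESeq2 1.42.0, limma 3.58.1, other scalings, no filter, a replicate block and leaving out each library. The members and gene lists were chosen with earlier results of these data known. Besides the members, the rule named the 2 called genes of each list with the largest rise and fall, 13 fixed genes, and the 3 nearest profiles; genes it named in the marker lists are given as counts, apart from a few named after their values were seen. Promoters and gene models came from RefSeq and GENCODE vM21. One item named by the rule and the list built on it are not reported here.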

Additional observations from a re-analysis of the deposited data

How the results depend on the processing

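Cish, Socs1, Socs2 and Socs3 rose past the threshold in all 12 refits, with log2 fold changes of 4.22 to 4.43, 4.89 to 5.37, 2.34 to 2.67 and 3.63 to 3.85. The limits lie in the smaller changes. Socs6 passed with DESeq2 (-0.77, adjusted p = 0.000691), with library size alone (-0.92), with no filter (-0.76), with the replicate block (-0.74) and at a threshold of 0.05 (-0.77), so that each of these gave 1 member lower. Leaving out single libraries, its log2 fold change ran from -0.98 to -0.61, and 0 to 1 member was lower. Socs4 passed only at 0.05 (0.28). Socs7 ran from -0.15 to 0.0039 without single libraries, changing sign without sham replicate 2. The cause was not tested.

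Over all genes, 1632 rose and 1572 fell. Library size alone gave 1036 higher, moved the median log2 fold change from -0.014 to -0.16 and the share of higher genes among calls from 50.9% to 30.7%. A threshold of 0.05 gave 2478 lower. Without single libraries, 1071 to 1833 rose and 1018 to 1698 fell, both lowest without EV replicate 3, and 1044 fell without EV replicate 2. The summed family rose by 2.23 on the log2 scale with library size alone, against 2.33 to 2.43 without single libraries. Per kb of transcript, Cish held 50.5% of the family in EV-treated and 18.8% in sham-treated libraries. The replicate block changed no other member's call. The labels do not say that equal numbers share a culture, so the main fit did not take the numbers as pairs. Deviations of same-numbered libraries correlated by 0.12, 0.085 and 0.037 across genes, and those of different numbers by -0.12 to 0.049. Of the libraries, 1, EV replicate 3, correlated best with another number. Whether equal numbers are pairs was not tested. Of the counts within single lists, 17 left a range of 1.5 times and 217 stayed in it.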
